A study of Homo sapiens with 4 samples.

Results

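The SLAM family of immune receptors was followed here as 8 receptor genes (SLAMF1, SLAMF6, SLAMF7, SLAMF8, CD48, CD84, LY9 and CD244) and 2 adaptor genes (SH2D1A and SH2D1B), 10 of the 62069 genes counted in each library. The genes were taken by symbol from the deposited gene table. The family was selected on measured values of these 4 libraries, with the lower SLAMF7 level in the knockdown libraries already known, so the differences of its members between the groups are given as a description and not as a test. RNA was sequenced from KMS11, an established multiple myeloma cell line with the t(4;14) translocation, in which the histone methyltransferase gene NSD2 is driven by an immunoglobulin enhancer. Lentivirus carrying an shRNA labelled M2, given as NSD2 knockdown, was used for 2 libraries, and a control shRNA for 2 libraries. All cells met polybrene at 10 µg/mL and were collected at 96 h, 72 h after the medium was changed. Only 1 cell line was used, and no label tells if equally treated libraries were separate cultures. SDs and p-values therefore cover the spread among 4 libraries and nothing wider, and that spread may be technical.

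SLAM receptors are surface glycoproteins of the immunoglobulin superfamily, found on blood cells. Most of them bind a copy of themselves on a neighbouring cell, while CD244 binds CD48. The tails of most members carry tyrosine motifs that recruit the small SH2 adaptors SAP (SH2D1A) and EAT-2 (SH2D1B), which decide between activating and inhibitory signals. Plasma cells and myeloma cells carry SLAMF7 in abundance, and it is the target of the antibody elotuzumab.

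Each library held between 46728940 and 55059566 fragments. Levels are given as CPM, fragments scaled to a fixed library size after TMM normalization, and the threshold was an adjusted p below 0.05 in the quasi-likelihood test of edgeR over 17172 genes. The gene aimed at, NSD2, stood at 919 and 1156 CPM in the libraries labelled NSD2 knockdown, against 1121 and 1471 CPM in the control libraries. These groups overlapped, and NSD2 did not pass the threshold (log2 fold change -0.32, SE 0.15, adjusted p = 0.244 by edgeR). NSD2 passed, lower in the knockdown libraries, when all genes were tested without a filter (adjusted p = 0.0173), with the replicate block (0.0197), when knockdown library 2 was left out (0.0268) and when control library 1 was (0.0196). The fits without 1 library gave log2 fold changes from -0.50 to -0.12. Once GC content and length were modelled, the value was 0.0438. The lower NSD2 level thus depends on the setting and on single libraries. The plasma cell markers SDC1, TNFRSF17, PRDM1, IRF4, XBP1, MZB1 and POU2AF1 were all expressed, and 8 plasma cell markers with CD38 summed to 3389 and 3783 CPM in the knockdown libraries, against 3479 and 3634 CPM in the control libraries. CD38 itself, with 14 and 2 fragments in the knockdown libraries against 78 and 33 in the control libraries, was nearly absent. Of the 4 markers of NK cells, KLRD1 and NCR1 had 0 fragments in every library, and the list summed to at most 0.0848 CPM. The 4 markers of T cells summed to 2.65 and 2.73 CPM in the knockdown libraries against 4.45 and 3.82 CPM in the control libraries, nearly all of it CD3E, while CD3D was at 0. The B cell markers reached at most 0.742 CPM and the myeloid markers at most 2.67 CPM in sum.

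SLAMF7 (ENSG00000026751, GRCh37 chromosome 1, 160709037 to 160724611, plus strand) was the SLAM gene with the most fragments in control cells and the only tested member past the threshold. It stood at 109.7 and 128.6 CPM in the knockdown libraries, against 236.6 and 272.2 CPM in the control libraries. Both knockdown libraries lay below both control libraries, as was so for 26.2% of all genes tested. The margin was wider than the spread within either group. The mean was 119 ± 13.4 CPM in the knockdown libraries and 254 ± 25.2 CPM in the control libraries (SD, n = 2 each), a level 53.2% lower (log2 fold change -1.09, SE 0.114, 95% interval -1.35 to -0.84). These levels rest on 5303 and 6979 fragments in the knockdown libraries and 11960 and 12837 in the control libraries, so counting error is small beside the spread. No other annotated gene overlaps SLAMF7, so its fragments are not shared with a neighbour, even where counting ignores strand. In this bulk RNA, fewer cells with SLAMF7 and less SLAMF7 RNA per cell cannot be told apart.

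The fall of SLAMF7 was as large within each library number. The log2 ratio was -1.11 between knockdown library 1 and control library 1, and -1.08 between the libraries numbered 2. Leaving out each library in turn gave log2 fold changes from -1.22 to -0.98. All these values come from the libraries on which the family was selected and are no independent support. In the control libraries the CPM of SLAMF7 was higher than that of 94.9% of the 13037 protein-coding genes tested, and in the knockdown libraries higher than that of 86.2%. Of the 719 genes that fell, 346 had a larger fall than SLAMF7. Among the 17 of them with a control level at least that of SLAMF7, which is itself one, 0 had a larger fall. That cutoff is the level of SLAMF7 itself, and its fall was known beforehand, so the rank is a description and no support.

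**Figure D1:**
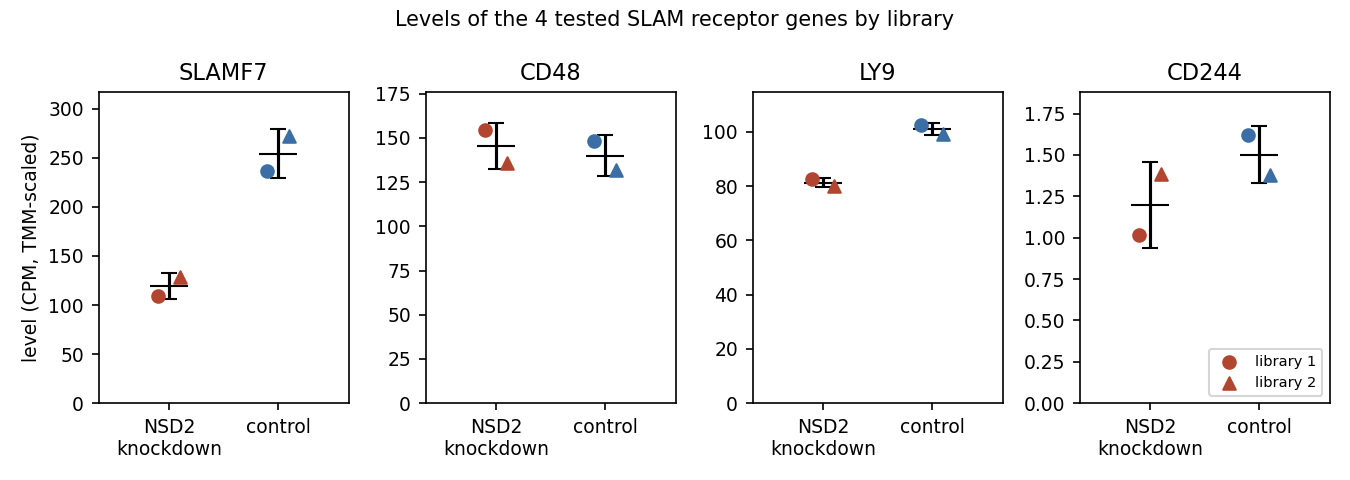
Levels in CPM of the 4 tested SLAM receptor genes in each library, with circles for libraries numbered 1, triangles for libraries numbered 2, and bars for the mean with its SD (n = 2). SLAMF7 lies between 109.7 and 128.6 CPM in the knockdown libraries and at 236.6 CPM or above in the control libraries, while the groups of CD48 and CD244 overlap.

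CD48, the GPI-anchored ligand of CD244, is the nearest neighbour of SLAMF7 to the left, 27.4 kb away and on the opposite strand (ENSG00000117091, chromosome 1, 160648536 to 160681641). It stood at 154.6 and 136.0 CPM in the knockdown libraries, against 148.3 and 131.6 CPM in the control libraries. The groups overlapped, and on the log2 scale the difference was 0.05 with a 95% interval of -0.18 to 0.29, which leaves out a change of the size seen for SLAMF7. Leaving out 1 library moved the value between -0.0357 and 0.15, so its sign depends on the library left out. An antisense gene that overlaps CD48 had at most 35 fragments in a library.

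LY9 lies 41.3 kb to the right of SLAMF7 on the same strand (ENSG00000122224, chromosome 1, 160765896 to 160798045) and encodes a self-binding receptor, CD229, also found on myeloma cells. It stood at 82.4 and 80.1 CPM in the knockdown libraries, against 102 and 99.3 CPM in the control libraries. The groups did not overlap, as was so for 53.2% of all genes tested, and 26.2% of all had the knockdown libraries lower. On the log2 scale the difference was -0.31 (95% interval -0.51 to -0.11, SE 0.09), which did not pass the threshold after adjustment over all genes. With terms for GC content and length it was -0.17.

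CD244, the receptor for CD48 known from NK cells, lies on the opposite strand with its 3′ end 1.90 kb beyond the end of LY9 (ENSG00000122223, chromosome 1, 160799950 to 160832692). It had 49 and 75 fragments in the knockdown libraries, against 82 and 65 in the control libraries. These are 1.01 and 1.38 CPM in the knockdown libraries and 1.62 and 1.38 CPM in the control libraries, and the groups overlapped. The 95% interval of its log2 fold change, -0.89 to 0.25, is wide at this depth. Thus 1 of the 4 tested members passed the threshold, against a background of 5.93% of all genes tested (299 genes or 1.74% rose and 719 or 4.19% fell, against 656 and 622 with GC and length terms), from which nothing is read because SLAMF7 was known when the family was chosen.

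The other 6 members were too low to be tested, with 0 to 10 fragments in any library. SLAMF1, the founding self-binding receptor of the family, had 8 and 8 fragments in the knockdown libraries and 10 and 6 in the control libraries. Its sum was 16 in each group, with an exact Poisson 95% interval of 9.15 to 26.0 that covers counting error only. SLAMF8, a member whose tail lacks the tyrosine motifs that bind SAP, had 2 and 2 fragments in the knockdown libraries and 2 and 6 in the control libraries. CD84, a self-binding receptor of B cells and platelets, had 1 and 3 in the knockdown libraries and 1 and 1 in the control libraries. SLAMF6, a self-binding receptor of T, B and NK cells, had 0 in all 4 libraries, where a count of 0 allows a level of up to 0.0553 to 0.0636 CPM per library (3 fragments). SLAMF9, a further gene of the family outside the 10, was at 0 as well. No difference between the groups was detectable at this depth for any of these genes.

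The adaptors that link SLAM receptors to kinases were close to absent. SH2D1A had 1 and 1 fragments in the knockdown libraries and 0 and 0 in the control libraries, and it overlaps the highly expressed gene STAG2 on chromosome X. SH2D1B had 1 and 2 fragments in the knockdown libraries and 2 and 1 in the control libraries. KMS11 RNA thus held SLAMF7, CD48 and LY9 with almost no message for either adaptor.

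Neighbouring genes of the cluster therefore differed widely in level, from SLAMF7 and CD48 at 109.7 CPM or more in each library to SLAMF6 at 0. Of the genes with a promoter entry, CD48 had the highest level and SLAMF6 the lowest, and for these 2 the RefSeq promoter is shown, from 250 bases before to 50 bases after the gene start on GRCh38.p14, minus strand of chromosome 1, written 5′ to 3′ with E-boxes (CANNTG, either strand) in capitals. The windows are chr1:160711773-160712072 for CD48 and chr1:160523206-160523505 for SLAMF6.
CD48: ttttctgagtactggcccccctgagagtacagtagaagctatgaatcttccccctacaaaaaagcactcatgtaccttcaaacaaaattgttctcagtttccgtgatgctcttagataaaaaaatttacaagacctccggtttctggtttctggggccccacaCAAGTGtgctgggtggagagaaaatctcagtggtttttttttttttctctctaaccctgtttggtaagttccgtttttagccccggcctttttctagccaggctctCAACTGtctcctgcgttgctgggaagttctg
SLAMF6: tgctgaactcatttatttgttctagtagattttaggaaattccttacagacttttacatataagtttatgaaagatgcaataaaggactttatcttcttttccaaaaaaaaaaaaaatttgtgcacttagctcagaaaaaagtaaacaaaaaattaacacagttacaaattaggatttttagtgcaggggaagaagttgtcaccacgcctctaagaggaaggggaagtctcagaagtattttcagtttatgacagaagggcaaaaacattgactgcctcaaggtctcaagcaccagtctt
The CD48 window holds 2 E-boxes and the SLAMF6 window holds 0, where 68.7% of 35116 promoters of this length hold at least 1. Neither window holds GAAAGT, the core of the PRDM1 motif, on either strand (13.3% of promoters do). Of the other members with an entry, SLAMF8 and SH2D1B, both near absent, hold 3 E-boxes each. CD244 and SH2D1A hold 2 each and SLAMF1 holds 1, so E-box number did not follow level among these genes. A match, or its lack, is a feature of these letters and says nothing of binding or level. CpG pairs number 5 in the CD48 window and 1 in the SLAMF6 window, against a median of 14 over all promoters. SLAMF8 and SLAMF1 hold 5 as well, SH2D1A holds 4, and CD244 and SH2D1B hold 2 each. Promoter entries were matched for 7 of the 10 members (SLAMF8, SLAMF6, SLAMF1, CD48, CD244, SH2D1B and SH2D1A).

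Per length of gene, CD48 was the highest member in the knockdown libraries. In FPKM, CPM per kb of exonic length in the deposited table, CD48 was at 58.3 ± 5.26 and SLAMF7 at 25.9 ± 2.91 in the knockdown libraries, against 56.1 ± 4.73 and 55.3 ± 5.48 in the control libraries (SD, n = 2 each). CD48 and SLAMF7 thus did not differ beyond their spread in the control libraries, and CD48 lay above SLAMF7 in both knockdown libraries. LY9 was below both, with 11.3 ± 0.227 FPKM in the knockdown libraries and 14.0 ± 0.301 FPKM in the control libraries. CD244 was at 0.412 ± 0.0897 FPKM in the knockdown libraries and 0.517 ± 0.0593 FPKM in the control libraries, and every other member averaged below 0.05 FPKM. The order of the first 2 genes in the control libraries depended on the length used. Per kb of the longest protein-coding transcript, SLAMF7 was at 44.3 ± 4.98 FPKM in the knockdown libraries and 94.6 ± 9.37 FPKM in the control libraries, and CD48 at 81.0 ± 7.32 FPKM in the knockdown libraries and 78.1 ± 6.58 FPKM in the control libraries. LY9 on that length was at 32.7 ± 0.66 FPKM in the knockdown libraries and 40.6 ± 0.875 FPKM in the control libraries.

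The balance among receptors was compared within each library, where no scaling enters. SLAMF7 had 0.709 and 0.945 fragments per fragment of CD48 in the knockdown libraries, against 1.60 and 2.07 in the control libraries. Per fragment of LY9 it had 1.33 and 1.61 in the knockdown libraries, against 2.31 and 2.74 in the control libraries. Both ratios were lower in each knockdown library than in each control library, and both rest on the SLAMF7 level that was known beforehand. Of all fragments on the 8 receptor genes, SLAMF7 took 31.5% and 37.1% in the knockdown libraries against 48.4% and 53.9% in the control libraries. The receptors together stood at 348 and 346 CPM in the knockdown libraries and at 489 and 505 CPM in the control libraries.

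**Figure D2:**
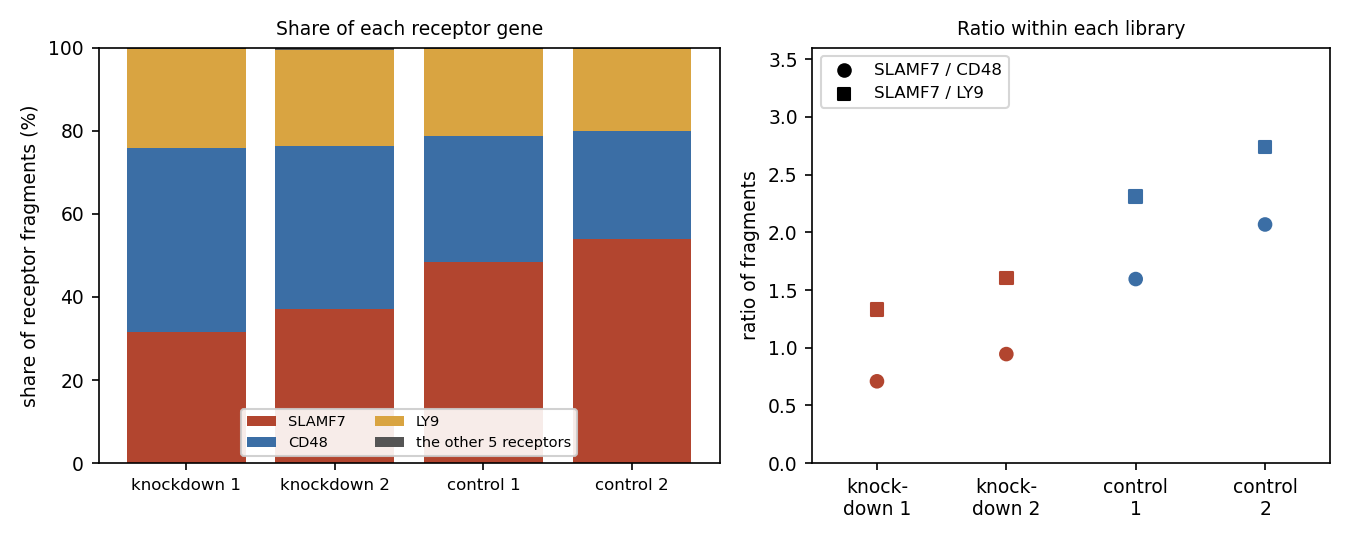
Left, share of the fragments on the 8 SLAM receptor genes that each gene took in every library, in percent; right, fragments of SLAMF7 per fragment of CD48 (circles) and of LY9 (squares) in every library. SLAMF7 takes 31.5% and 37.1% in the knockdown libraries and 48.4% and 53.9% in the control libraries, and the ratio to CD48 is below 1 in both knockdown libraries only.

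Libraries of the same group were also set against each other. The members were chosen on values of these same libraries, so this comparison too is a description. The libraries numbered 2 were compared with those numbered 1, with the group as a term. SLAMF7 was higher in number 2 in both groups (log2 ratio 0.22, SE 0.0862, 95% interval 0.04 to 0.39, adjusted p = 0.198 by edgeR). CD48 was lower in number 2 in both groups (log2 ratio -0.18, SE 0.0852, adjusted p = 0.310 by edgeR). LY9 and CD244 had log2 ratios of -0.04 and 0.09. Of the 4 tested members, 0 passed the threshold in edgeR and 0 in DESeq2, where 3.54% of all genes passed it in edgeR. An unadjusted p below 0.05 was found for 2 members. Nothing is read from that, because the share of all genes at this cutoff was not computed for this comparison. NSD2 moved with the number as well (log2 ratio 0.36, adjusted p = 0.0335 by edgeR). Each group held 1 library of each number.

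The stretch of chromosome 1 from SLAMF8 to SH2D1B held 124 annotated genes, of which 52 were tested. Of these, 0 rose and 3 fell, which is 5.77% against 5.93% of all genes tested. At an unadjusted p below 0.05 there were 4 higher and 11 lower, against 3865 of all 17172 genes tested in either direction. DESeq2 gave 0 rises and 3 falls, against 358 rises and 733 falls over all genes. The median log2 fold change was -0.16 over the stretch and -0.00165 over all genes tested. Besides SLAMF7, the falls were those of F11R, which encodes the junction protein JAM-A, and C1orf226. F11R stood at 38.2 and 46.2 CPM in the knockdown libraries against 70.6 and 74.5 CPM in the control libraries (log2 fold change -0.78, SE 0.111, adjusted p = 0.00407 by edgeR). It overlaps TSTD1, which stood at 42.7 and 45.1 CPM in the knockdown libraries against 41.5 and 35.7 CPM in the control libraries. NOS1AP overlaps C1orf226 on the same strand and did not pass the threshold. It stood at 1.55 and 0.829 CPM in the knockdown libraries against 2.04 and 2.12 CPM in the control libraries (log2 fold change -0.81, adjusted p = 0.137 by edgeR). Whether the 2 genes differ separately was not tested. C1orf226 was at 4.05 and 3.54 CPM in the knockdown libraries against 7.48 and 5.68 CPM in the control libraries (log2 fold change -0.80, adjusted p = 0.0357 by edgeR). Its call was lost with GC and length terms (adjusted p = 0.0559), when knockdown library 2 was left out (0.0934) and when control library 1 was (0.0684). The number of calls in the stretch moved when a single library was left out, and so did the number over all genes. Between SLAMF7 and F11R, neither LY9 nor CD244 passed the threshold.

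**Figure D3:**
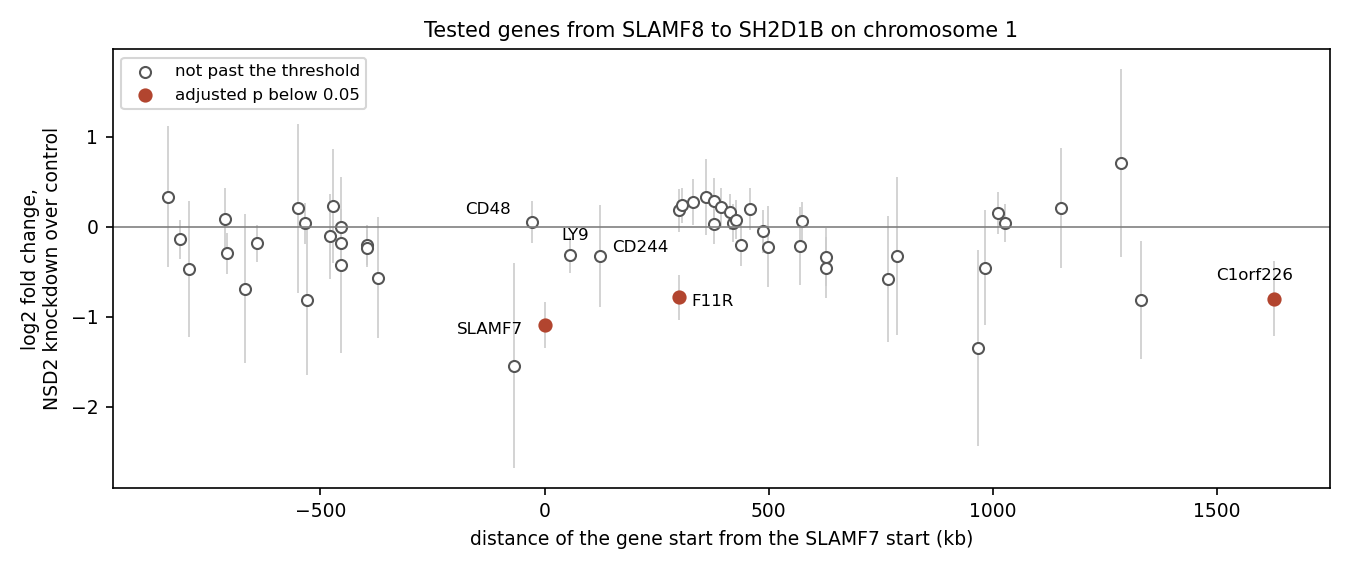
Log2 fold change, NSD2 knockdown over control, of the 52 tested genes from SLAMF8 to SH2D1B against the distance of each gene start from the SLAMF7 start in kb; grey lines are 95% intervals, filled points passed the threshold. SLAMF7, F11R and C1orf226 are filled, and CD48, LY9 and CD244 beside SLAMF7 are open.

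Downstream of the receptors, SAP couples to the kinase FYN, and phosphatases and docking proteins carry the signal on. Of 17 such signalling genes, 16 were tested; 2 fell, 0 rose and 14 did not pass, that is 12.5% against the background of 5.93%. At an unadjusted p below 0.05 there were 6 lower and 3 higher, against 3865 of all 17172 genes tested in either direction. DESeq2 gave 2 falls and 0 rises, against 733 falls and 358 rises over all genes. The median log2 fold change was -0.06 over the list and -0.00165 over all genes tested. DOK2, a docking protein of haematopoietic cells that restrains RAS, fell to 1.32 and 1.36 CPM in the knockdown libraries, against 5.28 and 5.87 CPM in the control libraries (4.14-fold lower, log2 fold change -2.05, SE 0.19, adjusted p = 0.00063 by edgeR). Its relative DOK1 fell to 4.63 and 4.37 CPM in the knockdown libraries, against 6.94 and 6.79 CPM in the control libraries (1.53-fold lower, adjusted p = 0.0478 by edgeR). The call of DOK1 was lost with DESeq2 (adjusted p = 0.0504), without knockdown library 1 (0.0988) and without knockdown library 2 (0.234), and DOK1 overlaps LOXL3.

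The kinases and phosphatases of the pathway did not pass the threshold. FYN stood at 45.7 and 24.8 CPM in the knockdown libraries against 70.9 and 46.0 CPM in the control libraries, with library 2 below library 1 in each group. Its log2 fold change was -0.73 (95% interval -1.32 to -0.15, adjusted p = 0.135 by edgeR), so a fall is not excluded. CSK, which restrains SRC kinases, stood at 182 and 163 CPM in the knockdown libraries against 249.7 and 211 CPM in the control libraries (log2 fold change -0.42, adjusted p = 0.0597 by edgeR). The phosphatase genes PTPN6 and PTPN11, which bind the tyrosine motifs, had log2 fold changes of -0.01 and -0.12, with 95% intervals of -0.22 to 0.19 and -0.34 to 0.10. INPP5D, the lipid phosphatase SHIP1, had 4 and 10 fragments in the knockdown libraries and 5 and 10 in the control libraries and was not tested. This list held 4 calls with GC and length terms, where 656 genes rose and 622 fell over all genes tested. Its number of calls moved when a single library was left out, and so did the number over all genes.

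**Figure D4:**
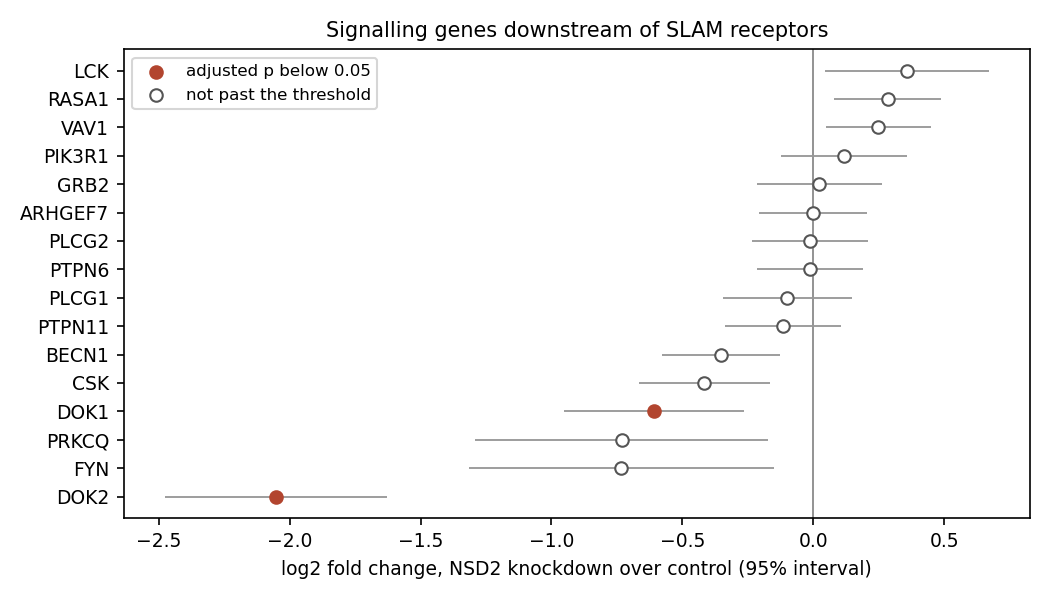
Log2 fold change, NSD2 knockdown over control, with its 95% interval for the 16 tested signalling genes downstream of SLAM receptors; filled points passed the threshold. DOK2, at -2.05, and DOK1 are filled.

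Most other ligands and receptors of contacts with NK and T cells did not pass the threshold. Of 24 genes, 20 were tested, and 2 rose, 0 fell and 18 did not pass, that is 10.0% against 5.93%. At an unadjusted p below 0.05, 3 were higher and 4 lower, against 3865 of all 17172 genes tested in either direction. DESeq2 gave 2 rises and 0 falls, against 358 rises and 733 falls over all genes. The median log2 fold change was -0.21 over the list. TIGIT, an inhibitory receptor of T and NK cells, stood at 13.6 and 19.0 CPM in the knockdown libraries against 8.29 and 9.86 CPM in the control libraries (log2 fold change 0.85, adjusted p = 0.0205 by edgeR; 0.58 and 0.0827 without knockdown library 2). VSIR, the checkpoint receptor VISTA, stood at 11.8 and 12.6 CPM in the knockdown libraries against 8.25 and 8.65 CPM in the control libraries (log2 fold change 0.53, adjusted p = 0.0413 by edgeR). Its call was lost with library-size scaling (adjusted p = 0.0539), with the filter of 1 CPM (0.0507), without knockdown library 1 (0.0617) and without knockdown library 2 (0.259). The list held 0 genes past the threshold without knockdown library 2. CD58, the ligand of the SLAM-related receptor CD2, stood at 5.13 and 5.95 CPM in the knockdown libraries against 6.98 and 5.79 CPM in the control libraries, and these overlapped.

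Among 10 other surface targets of antibodies and cell therapies in myeloma, 9 were tested; 4 fell, 1 rose and 4 did not pass, that is 55.6% against 5.93%. The list was drawn up with falls of some of its genes known and is no independent evidence of a direction. The median log2 fold change was -0.47. CD46, a complement regulator, stood at 198 and 206 CPM in the knockdown libraries against 281 and 300.4 CPM in the control libraries (adjusted p = 0.0116 by edgeR). GPRC5D, an orphan receptor of plasma cells, stood at 4.84 and 6.04 CPM in the knockdown libraries against 9.22 and 11.7 CPM in the control libraries (adjusted p = 0.0134 by edgeR). ITGB7, the integrin beta 7 chain, stood at 1909 and 2492 CPM in the knockdown libraries against 3217 and 3825 CPM in the control libraries (adjusted p = 0.0238 by edgeR). CD38 was the remaining fall, at the counts given above (log2 fold change -2.82, adjusted p = 0.0284 by edgeR). Its call was lost with robust empirical Bayes (adjusted p = 0.0525), it was left out by the filter of 1 CPM, and fits without 1 library moved its log2 fold change between -4.84 and -1.96. The B cell receptor chain gene CD79B rose, to 56.1 and 63.7 CPM in the knockdown libraries against 39.4 and 42.2 CPM in the control libraries (adjusted p = 0.0127 by edgeR, and 0.0652 without knockdown library 2). TNFRSF17, which encodes BCMA, and SDC1 did not pass, with 95% intervals for the log2 fold change of -0.21 to 0.43 and -0.15 to 0.27.

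The genes whose profile over the 4 libraries was most like that of SLAMF7 were sought in the 9910 protein-coding genes whose mean reached 5 CPM, by the distance between centred log2 CPM values. In order of likeness these were ELOVL4 (distance 0.128), PLEKHG4B (0.153), FSTL4 (0.153), SEMA4A (0.166) and CSF2RB (0.170). SEMA4A, a semaphorin gene also on chromosome 1, stood at 88.4 and 95.1 CPM in the knockdown libraries against 162 and 198 CPM in the control libraries. CSF2RB, the shared beta chain of the IL3, IL5 and GM-CSF receptors, stood at 69.2 and 69.8 CPM in the knockdown libraries against 147 and 165 CPM in the control libraries. A likeness over 4 libraries is a description.

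For the contrast that it calls M2 vs LUC, the authors' deposited table gives SLAMF7 a log2 fold change of -1.07 (SE 0.222). The same deposited table gives 0.07 for CD48, -0.29 for LY9 and -0.30 for CD244. For NSD2, the gene aimed at, it gives -0.30 (SE 0.201, adjusted p = 0.933 by DESeq2). The deposited base mean of LY9 in the authors' table is 2272, below its lowest library here, 3986 fragments, and that of CD244 is 33.8, below its lowest library, 49 fragments. Those of SLAMF7 (8904), CD48 (6249) and NSD2 (63238) lay within the range of their libraries here. Which libraries entered the authors' model is not given in the sources used here. Why the base means of LY9 and CD244 were lower was not tested.

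**Figure D5:**
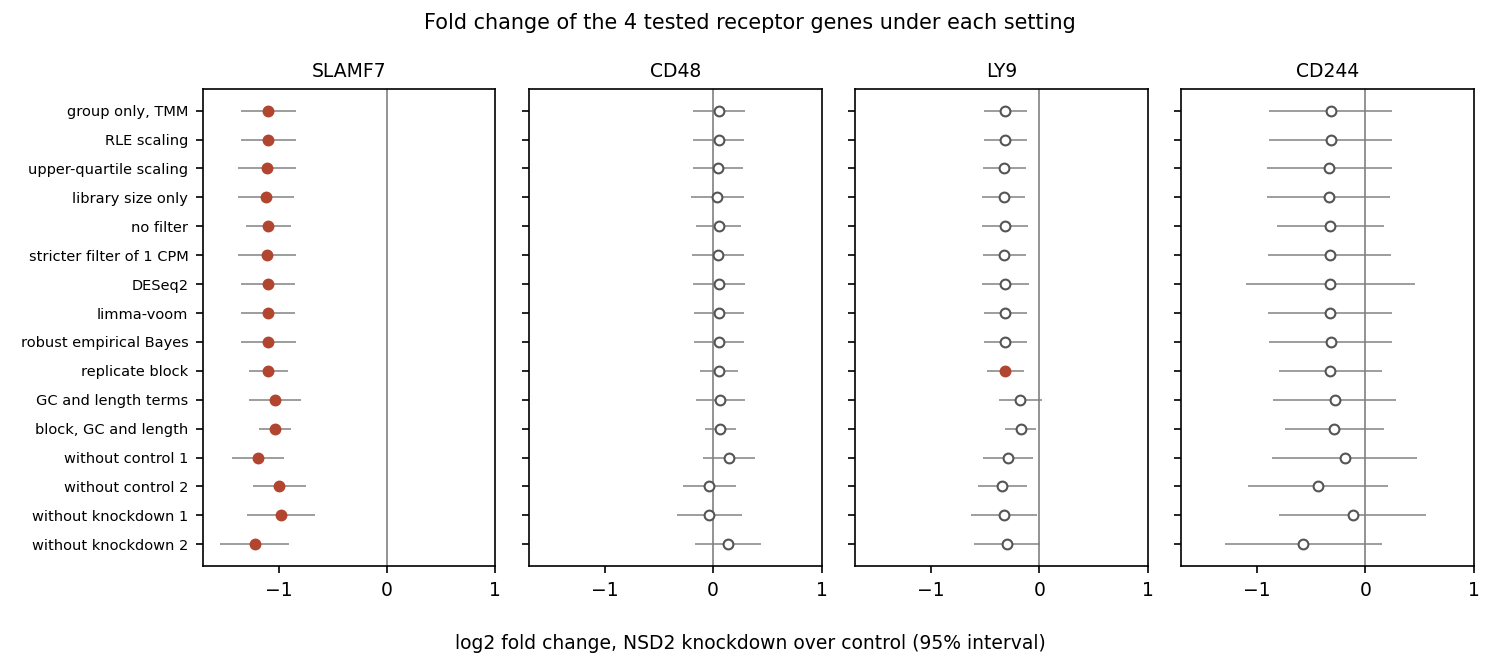
Log2 fold change, NSD2 knockdown over control, with its 95% interval for the 4 tested receptor genes under 16 settings, from the group-only fit at the top to the fits that leave out 1 library; filled points passed the threshold. SLAMF7 lies between -1.22 and -0.98 in every setting, and LY9 is filled with the replicate block alone.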

How the data were processed

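The deposited file of each library holds raw fragment counts per gene. Per the submitters' processing notes, the authors used Trim Galore 0.3.7, STAR 2.5.3, Picard and featureCounts of Subread 1.4.6 on GRCh37. Per the header of the deposited gene table, counting ignored strand and used alignments named as free of duplicates. Whether the counts used here were made in the same way was not tested. Libraries were made from 1 µg of total RNA. The authors also deposited a DESeq2 table. Its log2 fold changes, standard errors (a score), adjusted p-values, base means (a signal over the authors' libraries) and exonic lengths were read, and its 4 count columns and 1 blank line per count file were not used. Coordinates of genes are on GRCh37.

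Counts were tested with edgeR 4.0.16 in R 4.3.3 (TMM, default low-count filter, group as the only term, Benjamini-Hochberg adjustment). The biological coefficient of variation was 9.81%. The procedure was first tested on simulated counts, at a spread set in the simulation. It recovered 95.5% of 4-fold changes, 79.1% of 2-fold changes and 40.3% of smaller ones, with 4 false among 147 calls. A gene that did not pass the threshold may thus still differ between the groups, above all by a small fold.

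Alternatives were other scalings (RLE, upper quartile, total counts), testing every counted gene, a filter of 1 CPM in 2 libraries, DESeq2 1.42.0, limma-voom (limma 3.58.1), robust empirical Bayes, a replicate block, smooth terms for GC content and length (GENCODE 29; 96.3% of tested genes had a GC value) and leaving out each library. Length of the longest coding transcript was added after the data were seen. A fit without 1 library assumes that the lone library of its group varies like the others.

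The members, lists, motifs and tests were chosen with earlier results of these data known. Named genes were the 10 members, NSD2, SLAMF9, up to 3 rises and 3 falls per list by smallest adjusted p, and the 5 genes most like SLAMF7. FYN, CSK, PTPN6, PTPN11, INPP5D, CD58, CD38 and TSTD1 were named after their values were seen. Promoters are from RefSeq, GRCh38.p14.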

Additional observations from a re-analysis of the deposited data

How the results depend on the processing

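Over 15 alternatives the log2 fold change of SLAMF7 ran from -1.22 to -0.98, past the threshold in each; these refits use the 4 libraries on which the family was selected and are no independent support. CD244 stayed on its side too, from -0.57 to -0.11. CD48 never passed; it ran from -0.0357 to 0.15 when 1 library was left out, being -0.0357 without knockdown library 1 and -0.0356 without control library 2. NSD2 had a log2 fold change of 0.0438 with GC and length terms and 0.0327 with these and the block, but it fell and passed in 4 alternatives (adjusted p 0.0173 to 0.0268), and fits without 1 library gave -0.50 to -0.12.

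The labels do not say that equal library numbers mark a pair. The differences of number 2 from number 1 correlated across genes at 0.236 between the groups. With the replicate block, LY9 passed (log2 fold change -0.31), so 2 members passed in place of 1; with the block, GC and length it was -0.17 (adjusted p = 0.0570) and 1 member passed. With the block 1327 genes rose and 1992 fell, and with the block, GC and length 3273 rose and 1912 fell, against 299 and 719. The signalling, contact and chromosome 1 lists held 9, 4 and 13 calls with the block and 11, 8 and 20 with the block, GC and length, against 2, 2 and 3.

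GC and length terms alone gave 656 rises and 622 falls, and 4 signalling calls. Without a filter 658 genes rose and 1490 fell, with 6 signalling, 4 contact and 7 chromosome 1 calls. The contact list held 1 call with library-size scaling and 1 with the 1 CPM filter. Leaving out single libraries gave 173 to 682 rises and 649 to 1342 falls, 1 to 4 signalling, 0 to 3 contact and 3 to 7 chromosome 1 calls. Rises numbered 173 without knockdown library 2, 682 without control library 1 and 453 without control library 2, and falls 1342 without control library 1. Number 2 over number 1 gave 608 calls, 939 with the 1 CPM filter and 166 with DESeq2. The causes were not tested. Depth limits the 6 members with at most 10 fragments in a library.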
